A study of Mus musculus with 6 samples.

Results

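Transcripts of lysosomal enzymes, lysosomal membrane proteins and subunits of the vacuolar proton pump were followed in the retinal pigment epithelium (RPE) after light damage. The group was defined by a list of 33 genes, of which 32 were measured among 18193 genes in all, and Cd63 was not analysed here. A gene was represented by the probe set with the highest mean over the 6 arrays. RNA labelled as RPE of BALBc mice, an albino strain, was hybridised to 6 arrays after 1 week of dark adaptation in every animal. The 3 dark-adapted samples received no damaging light, and the 3 light-damaged samples came from mice placed under 6000 lux of white fluorescent light for 1.5 h and were taken 24 h later. The labels give neither age nor sex, and do not say whether a sample was 1 animal or a pool, and the p-values below therefore speak for the spread of these samples alone, part of which may be technical.

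Lysosomes break down material delivered by endocytosis, phagocytosis and autophagy with acid hydrolases. The vacuolar proton pump (V-ATPase) acidifies them, with a V1 sector that burns ATP and a V0 sector that carries protons through the membrane. The RPE engulfs the shed tips of photoreceptor outer segments each day and digests them in phagolysosomes, so that a large flow of lipid and protein passes through this compartment. The transcription factor TFEB drives many lysosomal genes through the CLEAR element, a palindrome around the E-box CACGTG.

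The middle of that element, TCACGTGA, was searched in RefSeq promoter windows of GRCm38.p6, from 250 bases before to 50 after each gene's start. The motif is its own reverse complement, so a match counts for both strands, and it contains the E-box. Windows existed for 26 of the 32 measured genes, and 4 of the 26 (15.4%) held it, against 304 of 27025 genes in the table (1.12%). Among further lysosomal genes, listed apart and described below, 7 of 63 with a window held it (11.1%). The E-box alone was in 8 of the 26 (30.8%), namely Arsa, Atp6v0d1, Atp6v1a, Gaa, Gla, Lamp1, Mcoln1 and Naglu, against 8.09% of all genes. Of the 63 further lysosomal genes, 13 held the E-box (20.6%). The stretches of 30 bases around each match are shown with the motif in capitals. They mark the genes that carry the motif in this window, whose values follow. The motif is only the middle of the CLEAR element, and the full element was not searched. They were picked after values were seen.
Mcoln1, chr8:3500462-3500491, plus strand: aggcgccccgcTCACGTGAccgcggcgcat
Atp6v0d1, chr8:105566050-105566079, minus strand: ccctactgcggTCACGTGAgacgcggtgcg
Atp6v1a, chr16:44139373-44139402, minus strand: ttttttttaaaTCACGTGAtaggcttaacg
Gla, chrX:134601215-134601244, minus strand: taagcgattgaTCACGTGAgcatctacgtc
Gla, chrX:134601182-134601211, minus strand: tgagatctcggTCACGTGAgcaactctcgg

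Relative to the start in that table, the motif began at base -46 in Mcoln1, -4 in Atp6v0d1 and -132 in Atp6v1a, and at -228 and -195 in Gla. All of these lie upstream of that start except the one of Atp6v0d1, which spans it, and the Atp6v1a match lies inside the outermost bounds that RefSeq gives for the gene. The differences of these 4 genes between light-damaged and dark-adapted RPE went both ways. They were -0.18 for Mcoln1, -0.13 for Atp6v0d1, -0.45 for Atp6v1a and 0.56 for Gla on the log2 scale, and none passed the test described next.

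The median difference of the lysosomal group after light damage was near that of all genes, and 1 gene rose and 1 gene fell. Gusb, which encodes the beta-glucuronidase that trims glycosaminoglycans, rose 1.72-fold, and Smpd1, which encodes the acid sphingomyelinase that turns sphingomyelin into ceramide, fell by 0.64 on the log2 scale. The median difference over the 32 genes was 0.02, with 17 above 0 and 15 below, and it was 0.00 over all genes. Differences here are light-damaged minus dark-adapted log2 values, compared with limma with the replicate number as a block (that is, within pairs of same-numbered arrays), and a gene is called at a Benjamini-Hochberg adjusted p under 0.05 over all genes. In that fit 4.99% of all genes were called, 3.07% higher and 1.92% lower, so 2 of 32 lysosomal genes (6.25%) is close to the background. At an unadjusted p under 0.05 there were 4 of 32 (12.5%), namely Gusb, Smpd1, Gla and Atp6v1a, against 19.0% of all genes. Without the block limma called 9 genes in all (0.0495%) and 0 of the 32, with 2 of the 32 (Smpd1 and Gla) at an unadjusted p under 0.05, against 5.94% of all genes.

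**Figure D1:**
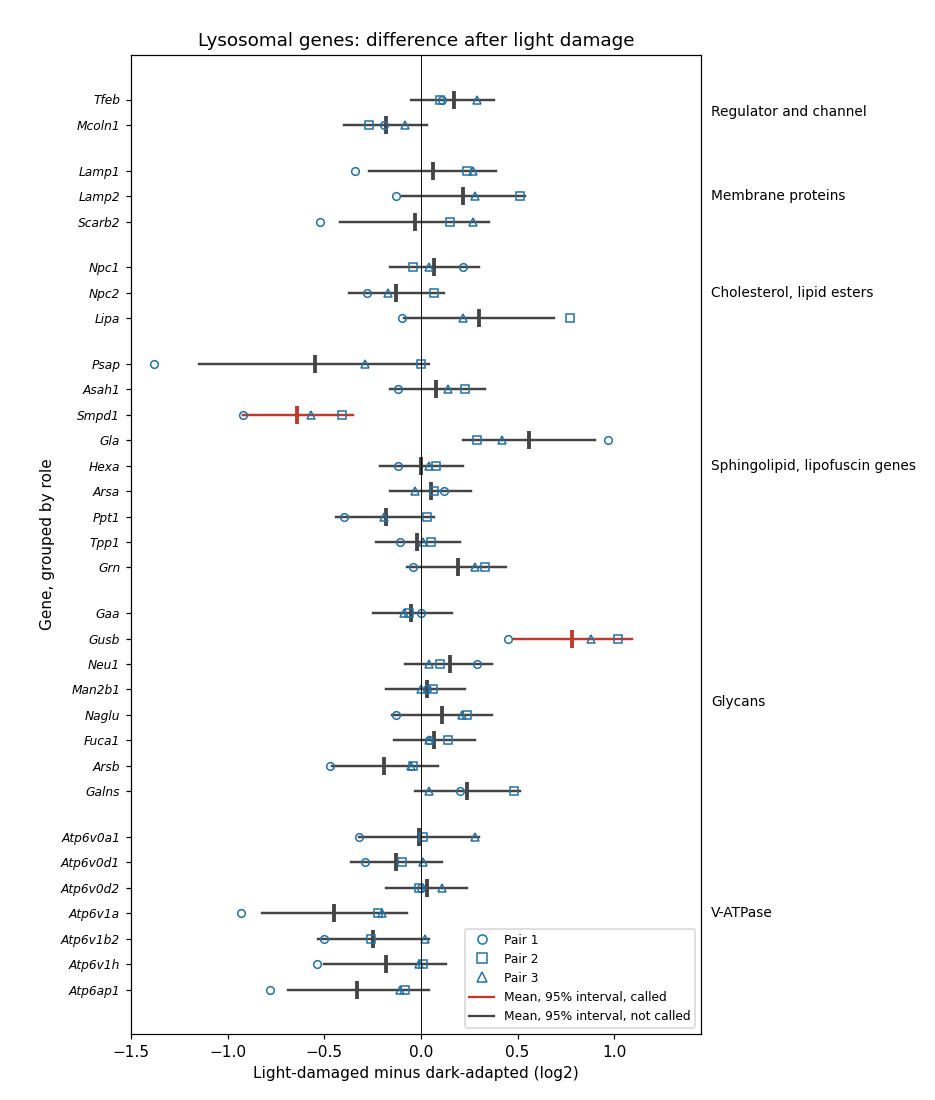
Light-damaged minus dark-adapted differences on the log2 scale (x axis) of the 32 measured lysosomal genes (y axis), grouped by role. Upright ticks are means over 3 pairs, bars their 95% intervals in limma with the replicate block, and open symbols the single pairs. The bars of Gusb and Smpd1, in red, are the called ones, and the circle of pair 1 lies apart from the other pairs for Psap, Atp6v1a and Atp6ap1.

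Both arrays numbered 1 differed from the other 4 in their controls. The Gapdh 3′ probe set exceeded the 5′ one, a common measure of RNA integrity, by 2.45 and 2.48 in these arrays and by 1.54 to 1.80 elsewhere. Of the 32 genes, 13 had both replicate 1 arrays below all the other 4 (40.6%, against 26.7% of all genes) and 6 had both above (18.8%, against 33.3%). Marker genes of the RPE had a mean log2 level of 12.76 to 13.03 in the dark-adapted and 12.16 to 12.62 in the light-damaged arrays, and photoreceptor markers, which mark a neighbouring cell type, 12.03 to 12.59 and 11.38 to 12.04. Array medians over all probe sets were 7.43 to 7.48. Of 19 macrophage and microglia markers 15 rose and 0 fell, of 13 photoreceptor markers 6 fell, and of 10 RPE markers 2 fell. RNA of a whole tissue sample cannot tell fewer cells of a type from less RNA per cell.

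Enzymes of glycan breakdown held the gene that rose. Gusb read 7.32, 7.94 and 8.07 in dark-adapted replicates 1 to 3 and 7.77, 8.96 and 8.95 in the light-damaged ones. Every light-damaged array was above its own partner, by 0.45, 1.02 and 0.88, but the light-damaged replicate 1 array lay below dark-adapted replicates 2 and 3, so the groups overlap. The difference was 0.78 ± 0.13 (SE, n = 3 pairs; limma adjusted p = 0.0240), with group means of 7.77 ± 0.40 and 8.56 ± 0.68 (SD). It was 0.95 without the replicate 1 arrays (limma adjusted p = 0.0032), and the call was lost without replicate 3, where the difference was 0.74 (limma adjusted p = 0.1149), and without the block (limma adjusted p = 1.0000). A second probe set of Gusb gave 0.19 ± 0.09 and did not pass, at a low level of 5.02 to 5.35, below the array medians.

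Of the 19 macrophage and microglia markers, 17 had a difference above 0. Their summed linear level was 28638, 20753 and 21546 in dark-adapted replicates 1 to 3 and 39613, 26664 and 27403 in the light-damaged ones. Within pairs the sum was higher after light, as was Gusb. The replicate 1 arrays had the highest sum of each group and the lowest Gusb, but single markers varied. Of the 19, 4 had both replicate 1 arrays above all the other 4 (21.1%, against 33.3% of all genes). Another 3 (Aif1, Ptprc and P2ry12) had both below, as Gusb did (15.8%, against 26.7%). Csf1r, the receptor for macrophage colony-stimulating factor, made up 52.0% to 53.8% of the sum in the dark and 35.5% to 37.4% after light, and its own difference was -0.15 ± 0.09 (limma adjusted p = 0.4542). Without Csf1r the sum was 13236, 9729 and 10340 in the dark and 24796, 17188 and 17415 after light. Markers of other cells were also called higher, 2 of 8 for Müller glia (Vim at 1.28 and Gfap at 0.74), 2 of 6 for neutrophils (S100a8 at 1.90 and S100a9 at 1.10) and 1 of 8 for endothelium (Vwf at 0.68). The values carry no detection calls, so no marker can be said to be at 0. The part of any of these cells in the Gusb difference was not tested.

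The other 7 glycan enzymes did not pass. Galns and Arsb, sulfatases of glycosaminoglycans, had differences of 0.24 (95% interval -0.03 to 0.51) and -0.19 (-0.46 to 0.09). The sialidase gene Neu1 read 8.05, 8.17 and 8.25 in the dark and 8.34, 8.27 and 8.30 after light. Its groups do not overlap, yet the difference was 0.15 ± 0.09 (limma adjusted p = 0.4890). Other probe sets of Neu1 gave 0.10 and -0.11, and in each of them the groups overlap. Naglu, which acts on heparan sulfate, had 0.11, the fucosidase gene Fuca1 0.07, the mannosidase gene Man2b1 0.03 and the glycogen-degrading enzyme gene Gaa -0.05. For these 4 the whole 95% interval lay between -0.25 and 0.37.

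Sphingolipid enzymes held the gene that fell. Smpd1 read 12.28, 12.24 and 12.47 in the dark-adapted and 11.35, 11.83 and 11.90 in the light-damaged arrays. All 3 light-damaged values lay below all 3 dark-adapted ones, and the pairs differed by -0.92, -0.41 and -0.57. The difference was -0.64 ± 0.12 (SE, n = 3 pairs; limma adjusted p = 0.0355), from 12.33 ± 0.12 to 11.69 ± 0.30 (SD). Smpd1 kept its call without replicate 1 (-0.49, limma adjusted p = 0.0320) and lost it without replicate 3 (-0.67, limma adjusted p = 0.1345) and without the block (limma adjusted p = 0.4817). Its second probe set gave -0.51 ± 0.12, with an adjusted p of 0.0823 over all probe sets in limma. RPE markers stood lower beside it: all 10 differences were under 0, their median was -0.46, and their summed linear level was 114572 to 141768 in the dark and 81909 to 111372 after light. Photoreceptor markers stood lower as well, with all 13 differences under 0 and a median of -0.57. What part the RPE or photoreceptor content of the samples has in the Smpd1 difference was not tested.

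The 150 bases immediately upstream of their starts in the promoter table are shown for both called genes. They were picked after the calls were known, and no result rests on these bases. No capitals are set, since neither CACGTG nor TCACGTGA is in the promoter window of either gene, which says only that these letters are not in that window.
Gusb, chr5:130003050-130003199, minus strand: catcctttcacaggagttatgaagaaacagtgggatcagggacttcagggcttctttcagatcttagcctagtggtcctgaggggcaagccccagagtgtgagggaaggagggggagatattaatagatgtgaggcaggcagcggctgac
Smpd1, chr7:105554210-105554359, plus strand: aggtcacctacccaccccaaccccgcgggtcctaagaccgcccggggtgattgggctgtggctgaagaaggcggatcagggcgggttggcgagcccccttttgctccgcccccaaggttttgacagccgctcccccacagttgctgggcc

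Gla, the alpha-galactosidase that clears globotriaosylceramide and the carrier of a pair of the motifs above, was the nearest of the other genes to a call. It read 7.04, 7.03 and 7.01 in the dark-adapted arrays and 8.01, 7.31 and 7.43 in the light-damaged ones. Every light-damaged value was above every dark-adapted one, with the largest step in pair 1 (0.97 against 0.29 and 0.42). The difference was 0.56 ± 0.14 (limma adjusted p = 0.0889, 95% interval 0.22 to 0.90). The other 2 probe sets of Gla gave -0.06 and 0.02, at low levels of 5.85 to 6.31 and 4.36 to 4.62, below the array medians of 7.43 to 7.48. Over all 32 genes the groups did not overlap for 5 (15.6%, against 10.3% of all genes), higher for 3 (Gla, Neu1 and Tfeb, against 6.61% of all genes) and lower for 2 (Smpd1 and Mcoln1, against 3.72%).

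Psap, the precursor of the saposins that help lipid hydrolases reach their substrates, showed how much 1 array can carry. It read 13.04, 13.26 and 13.57 in the dark and 11.66, 13.26 and 13.28 after light. The light-damaged replicate 1 array was far below the rest, and the pairs differed by -1.38, 0.00 and -0.29. The difference of -0.55 ± 0.25 (limma adjusted p = 0.2940) became -0.14, -0.83 and -0.69 without replicates 1, 2 and 3, and the second probe set gave -0.42.

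Among the remaining sphingolipid and lipofuscinosis genes none passed. The progranulin gene Grn, whose product is needed for lysosomal function and is abundant in myeloid cells, had 0.19 ± 0.11, with 2 further probe sets at 0.20 and 0.36. The lipofuscinosis genes Ppt1, which removes palmitate from proteins, and Tpp1, a tripeptidyl peptidase, had -0.18 and -0.02. Other probe sets gave 0.13, 0.00, -0.10 and -0.14 for Ppt1 and -0.29 ± 0.13 for Tpp1. Asah1 (acid ceramidase), Arsa (which degrades sulfatide) and Hexa (the alpha subunit of beta-hexosaminidase) had differences of 0.08, 0.05 and 0.00, with 95% intervals of -0.16 to 0.33, -0.16 to 0.26 and -0.21 to 0.22.

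**Figure D2:**
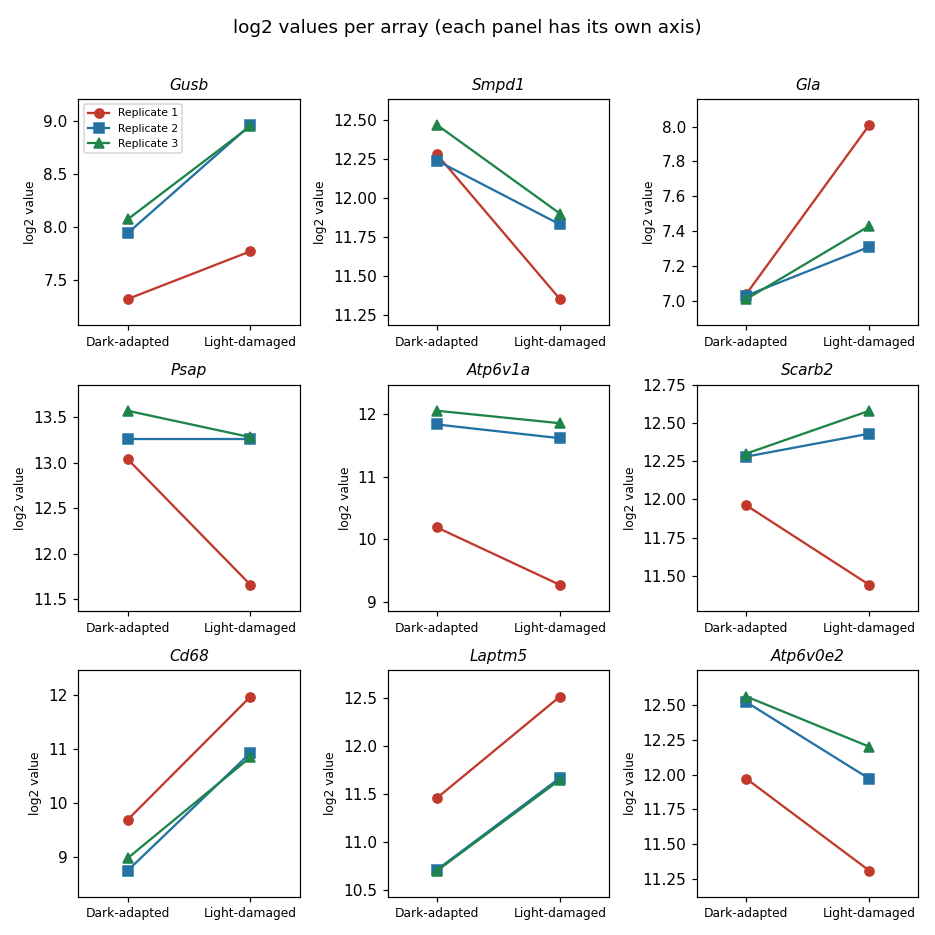
log2 values (y axis, its own range in each panel) of 9 lysosomal genes in the dark-adapted and light-damaged arrays, with lines joining arrays of the same replicate number. Gusb, Cd68 and Laptm5 go up and Smpd1 and Atp6v0e2 go down in 3 of 3 pairs, while the Psap step is large in replicate 1 alone, from 13.04 to 11.66.

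The cholesterol and lipid ester genes did not pass. Npc1 and Npc2, the membrane and soluble partners that export cholesterol from the lysosome, had differences of 0.07 ± 0.09 and -0.13 ± 0.10. Lipa, the acid lipase that frees cholesterol from its esters, read 10.34, 10.44 and 10.69 in the dark and 10.24, 11.21 and 10.92 after light. Pair 2 was at 0.77, pair 3 at 0.22 and pair 1 at -0.10, and the difference was 0.30 ± 0.16 (limma adjusted p = 0.4059) over all pairs. It was 0.49 without replicate 1 (limma adjusted p = 0.0951), 0.06 without replicate 2 (limma adjusted p = 0.9049) and 0.33 without replicate 3 (limma adjusted p = 0.6272).

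Lamp1 and Lamp2, the main glycoproteins of the lysosomal membrane, and Scarb2, the carrier of glucocerebrosidase, differed in sign between pairs. Lamp2 read 12.41, 12.63 and 12.71 in the dark and 12.28, 13.13 and 13.00 after light. Its difference was 0.22 ± 0.13 (limma adjusted p = 0.4574). It was 0.40 without replicate 1 (limma adjusted p = 0.0712), 0.08 without replicate 2 (limma adjusted p = 0.8846) and 0.19 without replicate 3 (limma adjusted p = 0.8078). Lamp1 had 0.06 ± 0.14, with pairs at -0.34, 0.24 and 0.27. Scarb2 had -0.03 ± 0.16, with pairs at -0.52, 0.15 and 0.27, and its second probe set gave 0.62 ± 0.16 (limma adjusted p = 0.1019 over all probe sets), so that the 2 probe sets of Scarb2 disagree. All 3 membrane protein genes were below 0 in pair 1 and above 0 in pairs 2 and 3. The same held for Lipa, Asah1, Hexa, Tpp1, Grn, Naglu and Atp6v0a1, in all 10 of 32 genes (31.2%) against 11.8% of all genes. The reverse, above 0 in pair 1 and below in the others, held for 1 of 32 (3.12%, against 12.1% of all genes).

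**Figure D3:**
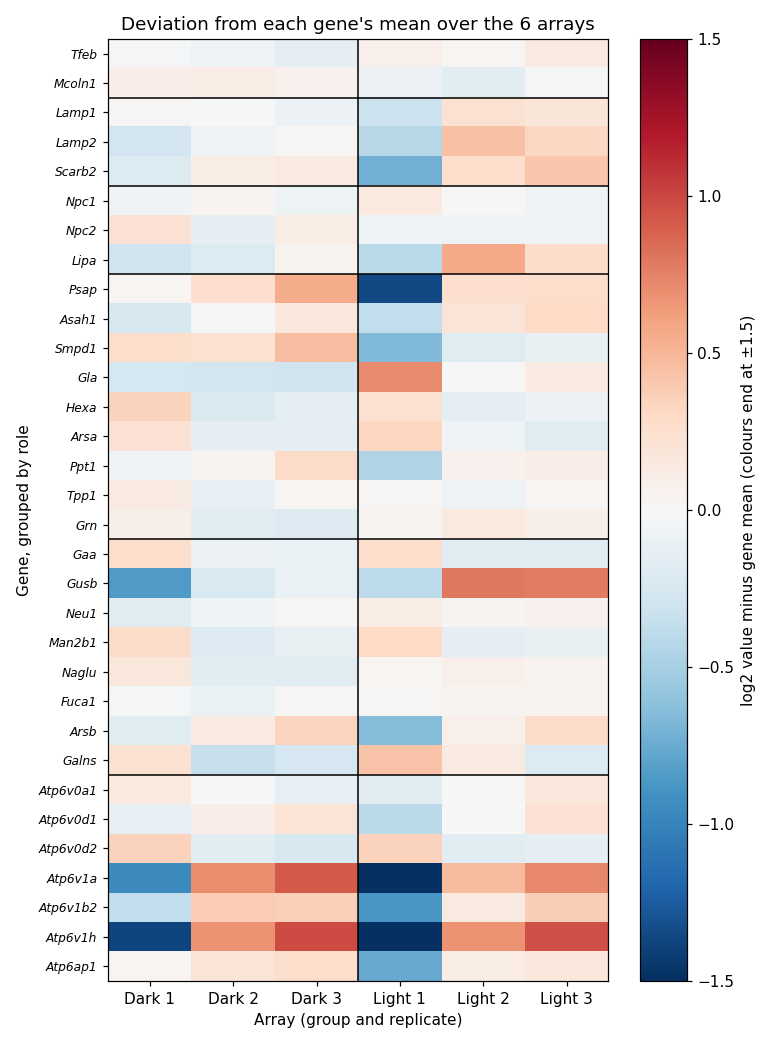
log2 value minus the gene's mean over 6 arrays (colour, ending at ±1.5) for the 32 measured lysosomal genes (rows, by role) in each array (columns). Light-damaged replicate 1 is the lowest array for Scarb2, Psap and Smpd1, and both replicate 1 arrays are low for Atp6v1a and Atp6v1h.

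Subunits of the V-ATPase were mostly lower after light but none was called. Differences were under 0 in 6 of 7 genes, the median being -0.18, and the median was -0.50, -0.08 and 0.01 in pairs 1, 2 and 3. Without replicates 1, 2 and 3 the median was -0.04, -0.24 and -0.27. In 5 of the 7 both replicate 1 arrays lay below the other 4. Atp6v1a, the catalytic subunit of V1, read 10.19, 11.84 and 12.06 in the dark and 9.27, 11.62 and 11.86 after light. It was lower after light in 3 of 3 pairs, by steps of -0.93, -0.22 and -0.20. The difference of -0.45 ± 0.16 (limma adjusted p = 0.1881) was -0.21, -0.56 and -0.57 without replicates 1, 2 and 3. Its second probe set gave -0.39. The V1 subunits Atp6v1b2 and Atp6v1h had -0.25 ± 0.12 and -0.18 ± 0.13, and the pairs of Atp6v1h were at -0.54, 0.01 and -0.01. Other probe sets gave -0.41, 0.25 and -0.02 for Atp6v1b2, and -0.02 and 0.01 for Atp6v1h.

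In the V0 sector, Atp6v0a1, a subunit of the proton path, had -0.01 ± 0.13. The paralogs Atp6v0d1 and Atp6v0d2, of which the first is widely expressed and the second is known from osteoclasts and macrophages, had -0.13 ± 0.10 and 0.03 ± 0.09. Atp6v0d2 read 6.86, 6.36 and 6.27 in the dark and 6.86, 6.35 and 6.38 after light, and its 95% interval was -0.18 to 0.24. The accessory subunit gene Atp6ap1 had -0.33 ± 0.15 (limma adjusted p = 0.3196), and -0.10, -0.45 and -0.43 without replicates 1, 2 and 3.

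The regulator Tfeb and the calcium channel gene Mcoln1, itself a TFEB target and the channel of the lysosomal membrane that activates TFEB, differed by little between groups. Tfeb read 9.30, 9.25 and 9.18 in the dark and 9.40, 9.36 and 9.46 after light. Mcoln1 read 9.98, 9.99 and 9.94 in the dark and 9.79, 9.71 and 9.86 after light. In the probe sets used the groups overlap for neither gene, but the differences of 0.17 ± 0.09 and -0.18 ± 0.09 did not pass (limma adjusted p = 0.4043 and 0.3480). The 95% intervals were -0.05 to 0.38 for Tfeb and -0.40 to 0.03 for Mcoln1. Other probe sets of Mcoln1 gave -0.06 and -0.14, and in each of them the groups overlap.

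For 25 of the 32 genes (78.1%) the whole 95% interval, not adjusted for the number of genes, lay within a 1.5-fold change either way, and the share over all genes was 84.1%. The 7 with wider or farther intervals were Gusb, Smpd1, Gla, Psap, Lipa, Atp6v1a and Atp6ap1. The median size of the difference regardless of sign was 0.16 for the 32 genes and 0.11 for all genes. Of the 32 genes, 23 had more than 1 probe set, and 10 of their 43 other probe sets had the opposite sign, none of the 43 being called when all probe sets were fitted in limma, where 3.77% of all probe sets passed.

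A further 81 lysosomal genes, listed apart from the 33 and without the cathepsins, gave 73 measured ones, of which 2 rose and 1 fell (4.11%, against 4.99% of all genes), with a median of -0.02. Both that rose encode lysosomal membrane proteins of leukocytes. Cd68, the macrophage marker macrosialin, read 9.69, 8.75 and 8.98 in the dark and 11.97, 10.93 and 10.85 after light, which makes 4.31-fold (2.11 ± 0.11 on the log2 scale, limma adjusted p = 7.5e-04). Laptm5 read 11.46, 10.71 and 10.70 in the dark and 12.52, 11.67 and 11.65 after light, a difference of 0.99 ± 0.09 (limma adjusted p = 0.0037). For both genes every light-damaged array was above every dark-adapted one. Laptm5 was measured by an x_at probe set, which can bind related transcripts, and its other 4 probe sets gave 0.69, 0.28, 0.12 and 0.16. The macrophage marker sum given above was, like both genes in the probe sets used, higher after light in each pair and highest in the replicate 1 array of each group. Single markers varied in this, as given above, and so did Laptm5. Its probe set at 0.69 (limma adjusted p = 0.0184 over all probe sets) was lowest in the replicate 1 array of each group, and those at 0.28 and 0.16 were highest there. The part of these cells, or of the other cell types with markers called higher, in these differences was not tested.

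The gene that fell was Atp6v0e2, a small V0 subunit, at 11.97, 12.52 and 12.56 in the dark and 11.31, 11.97 and 12.20 after light. The pairs differed by -0.66, -0.56 and -0.36, though the groups overlap. The difference was -0.53 ± 0.10 (limma adjusted p = 0.0346), and the call was lost without replicate 2 (limma adjusted p = 0.0952) or without replicate 3 (limma adjusted p = 0.1079). Beside it, all 13 photoreceptor and all 10 RPE marker differences lay under 0, with medians of -0.57 and -0.46, and their part in the Atp6v0e2 difference was not tested. Of the 15 measured V-ATPase genes in this second list it was the 1 called, and 11 were below 0, with a median of -0.07. None of the 18 other hydrolases and none of the 23 sorting and regulatory genes passed in limma, with 4 and 5 of them at an unadjusted p under 0.05. Over all 73 genes 17 were under it (23.3%), against 19.0% of all genes. Without the block limma called none of the 73 (0.0495% of all genes), with 6 at an unadjusted p under 0.05 (8.22%, against 5.94% of all genes).

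**Figure D4:**
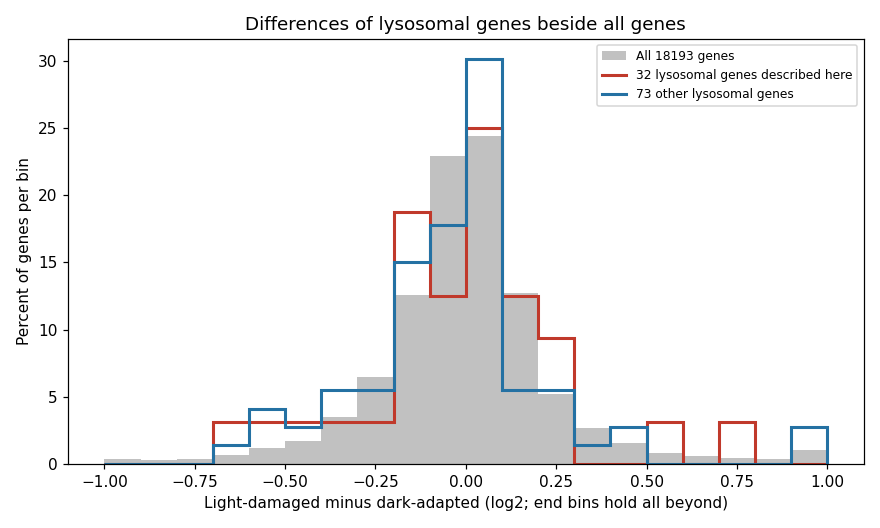
Percent of genes (y axis) by light-damaged minus dark-adapted difference on the log2 scale (x axis, bins of 0.1) for all 18193 genes in grey, the 32 lysosomal genes in red and the 73 further lysosomal genes in blue. All 3 distributions centre near 0, with medians of 0.00, 0.02 and -0.02, and the red steps at the ends are Smpd1 at -0.64 and Gusb at 0.78.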

How the data were processed

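RPE total RNA (Trizol, then a silica column) was biotin-labelled for 6 arrays, per the labels. The deposited values are log2 values per probe set. The submitters' processing notes name RMA, a method that subtracts background, brings arrays to 1 scale and merges the probes of a set, without a version. Differences near background or saturation of the array signal can be compressed, and precision is limited by the 6 arrays. Of 45101 probe sets, 34945 had exactly 1 symbol in the platform annotation, leaving 18193 genes. Of the 32 genes followed, 3 had s_at and 2 had x_at probe sets, whose probes may cross-hybridise.

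Tests used limma 3.58.1 (lmFit, eBayes, two-sided; R 4.3.3) over all genes, with 2 residual degrees of freedom with the replicate block and 4 without. The script was checked on simulated data. The replicate numbers, which come from the labels, were taken as pairs when the comparison was set up. Earlier results of these data, known by then, had already shown same-numbered arrays deviating together. The correlations given next come from the same data and are therefore no independent check of the pairing. Across genes, the deviations from group means of arrays sharing a number correlated at 0.89, 0.62 and 0.86, all above a bound of 0.1. Dark-adapted replicate 2 also correlated at 0.65 with light-damaged replicate 3, and replicate 3 at 0.61 with replicate 2, so the pairing of these is less sure. These swapped pairs pass the same bound, so it cannot decide how replicates 2 and 3 pair. The genes and lists were chosen with earlier results of these data known. Every measured gene of the group is named, and of each further list up to 4 called genes with the smallest p. Promoter windows are those of RefSeq. Alternatives are given in the closing section, and fitting every probe set was chosen after seeing the data.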

Additional observations from a re-analysis of the deposited data

How the results depend on the processing

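No replicate block left 9 genes called higher and 0 lower among all genes, against 559 and 349, and 0 lysosomal genes in either direction in both lists. With a block of 2 levels that parts replicate 1 from the others, 2 of the 32 genes were higher (Gla joined, limma adjusted p = 0.0475) and 4 of the 73 (with Hgsnat and Slc11a1). Array weights gave 1099 higher and 776 lower among all genes, 2 higher of the 32 (with Gla), and 5 higher and 4 lower of the 73. With no replicate block and without replicate 1, 217 genes were lower in all, Gusb was the 1 called of the 32, so that 0 were lower, and 0 of the 73 were lower. Without 1 pair of arrays at a time, calls ranged from 160 to 827 higher and 68 to 418 lower among all genes, from 0 to 1 higher and 0 to 1 lower among the 32, and from 2 to 4 higher and 0 to 2 lower among the 73, with a median of the 32 from -0.03 to 0.04. Without replicate 3 the counts of the 32 were 0 and 0. Median centring gave 2 lower of the 73 (with Mitf), and the mean of all probe sets 4 higher. Over 15 alternatives, Gusb was called in 13 and Smpd1 in 12, with values of 0.49 to 0.95 and -0.75 to -0.49. Among genes not called, 9 turned sign in at least 1 alternative, up to 0.62 for Scarb2 with the probe set of largest variance. Quantile normalization, the filter at a mean of 6, the pseudocount of 16, trend and robust settings kept Gusb and Smpd1 called. Counts with every probe set fitted were also 1 and 1. The causes were not tested.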
